A study of Mus musculus with 96 samples.

Results

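Levels of 7 mouse genes for oocyte transcription factors, Sohlh1, Sohlh2, Nobox, Figla, Lhx8, Taf4b and Tbpl2, were followed in RNA libraries made from individual oocytes at metaphase II (MII) and from individual cells of 2-cell embryos. The genes were chosen by their known role, and all 7 were among the 36935 gene symbols of the table. The study sequenced 96 libraries from a mouse line with the amino acid change P620A in PADI6, a maternal protein of the oocyte cytoplasm. The labels give 22 libraries to MII oocytes of genotype Padi6P620A/P620A, 22 to MII oocytes of genotype Padi6+/+, 22 to 2-cell blastomeres labelled Padi6MatP620A/+ (the changed allele came from the mother), 22 to 2-cell blastomeres labelled Padi6+/+, and 8 to negative controls. Females were 4 to 8 weeks old and had received pregnant mare serum gonadotropin and human chorionic gonadotropin, males were 8 to 12 weeks old, and embryos came from in vitro fertilisation. The labels name no animal, so several libraries may share a mother. A gene count does not show a single amino acid change, so the genotype labels were not checked by Padi6.

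Of the 96 libraries, 79 reached 100000 counts and 4000 detected genes and were kept. The stage labels disagreed with stage-specific RNAs and were set aside: 39 libraries with a Zfp352 count (an embryonic 2-cell transcript) and under 100 counts per 1000000 (CPM) of Mos (the oocyte kinase of meiotic arrest) were called 2-cell-like, and 39 libraries with at least 100 CPM of Mos oocyte-like. Mos reached at most 63.3 CPM in 2-cell-like and at least 200.6 CPM in oocyte-like libraries, and the lowest Zfp352 level in a 2-cell-like library was 0.566 CPM. The 2-cell-like libraries were 19 labelled mutant oocyte, 11 labelled mutant 2-cell, 7 labelled wild-type oocyte and 2 labelled negative control. The oocyte-like libraries were 9 labelled mutant 2-cell, 12 labelled wild-type oocyte, 14 labelled wild-type 2-cell and 4 labelled negative control. All 5 markers of the 2-cell stage, Zfp352 among them, were higher in 2-cell-like libraries by the 2-fold rule given further on; Zscan4d had a median of 156 CPM in 2-cell-like and 0 in oocyte-like libraries. Of 7 oocyte markers, Mos among them, 5 were lower in 2-cell-like libraries and 2 were not called. Zfp352 and Mos made the classes, so their direction was set in advance and only the other markers check the classes. Gdf9 had a median of 544 CPM in 2-cell-like and 6981 CPM in oocyte-like libraries, while the uncalled Bmp15 had medians of 2235 CPM in 2-cell-like and 3772 CPM in oocyte-like libraries, and the uncalled Bcl2l10 medians of 6376 CPM in 2-cell-like and 4693 CPM in oocyte-like libraries. Total counts were 503644 to 3185910 (median 1608305) in 2-cell-like and 162539 to 5762563 (median 3235838) in oocyte-like libraries. Markers of cumulus and granulosa cells took at most 0.0162% of counts in 2-cell-like libraries, and 0.00148% to 1.07% (median 0.0410%) in oocyte-like libraries, 11 of which held 0.1% or more.

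These factors build the oocyte's own transcription programme. The helix-loop-helix proteins SOHLH1, SOHLH2 and FIGLA and the homeodomain proteins NOBOX and LHX8 act in early oocytes. FIGLA is known for switching on zona pellucida genes through E-boxes. TAF4B, a gonadal subunit of the general factor TFIID, and TBPL2, the oocyte paralogue of the TATA-binding protein TBP, serve the core promoter during oocyte growth. A fully grown oocyte stops transcribing, so the RNAs of an MII oocyte were made earlier, and after fertilisation maternal RNAs are degraded while the embryo's genome is switched on at the 2-cell stage.

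Promoter sequences were at hand for 6 of the 7 genes, from RefSeq on GRCm38.p6. The 250 bases before the start are printed for 4 genes because they differ in E-boxes, the element bound by helix-loop-helix proteins, and in their level across the classes described further on. Sohlh1 lies at chr2:25847249-25847498, Nobox at chr6:43309555-43309804, Lhx8 at chr3:154330561-154330810 and Tbpl2 at chr2:24096596-24096845, all on the minus strand, and each run is written 5′ to 3′ along its gene with E-boxes (CANNTG, which reads the same way on both strands) in capitals.
Sohlh1: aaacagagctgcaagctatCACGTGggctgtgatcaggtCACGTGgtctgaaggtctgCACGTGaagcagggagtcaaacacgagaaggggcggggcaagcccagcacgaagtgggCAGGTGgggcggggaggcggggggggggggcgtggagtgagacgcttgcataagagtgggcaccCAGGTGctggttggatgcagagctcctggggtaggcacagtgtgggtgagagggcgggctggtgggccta
Nobox: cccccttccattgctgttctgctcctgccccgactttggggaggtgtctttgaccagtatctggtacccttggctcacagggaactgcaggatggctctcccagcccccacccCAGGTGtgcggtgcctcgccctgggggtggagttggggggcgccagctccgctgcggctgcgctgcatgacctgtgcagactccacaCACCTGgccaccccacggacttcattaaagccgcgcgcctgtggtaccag
Lhx8: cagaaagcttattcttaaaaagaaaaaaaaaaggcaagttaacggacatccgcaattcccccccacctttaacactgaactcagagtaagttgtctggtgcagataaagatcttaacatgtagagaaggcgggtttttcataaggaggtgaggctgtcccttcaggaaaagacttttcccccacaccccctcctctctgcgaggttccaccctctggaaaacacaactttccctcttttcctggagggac
Tbpl2: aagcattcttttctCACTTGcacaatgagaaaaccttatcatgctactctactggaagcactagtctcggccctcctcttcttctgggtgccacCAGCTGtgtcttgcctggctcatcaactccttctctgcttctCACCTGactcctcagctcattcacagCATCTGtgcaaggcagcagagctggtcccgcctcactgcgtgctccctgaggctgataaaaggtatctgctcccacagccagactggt

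The Sohlh1 promoter held 5 E-boxes, and 1.18% of 27025 promoters of the same length held 5 or more. Tbpl2 held 4, and 3.86% of promoters held 4 or more. Nobox held 2, as did Figla at chr6:86016941-86017190 on the plus strand, and 31.7% of promoters held 2 or more. Sohlh2, at chr3:55181794-55182043 on the plus strand, held 1, and Lhx8 held 0, while 66.0% of promoters held at least 1. None of the 6 windows held the homeodomain element TAATTG, present in 7.34% of promoters on either strand, or the TATA box TATAAA, present in 13.0% on either strand. A match describes letters in this window and is no measurement of binding.

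Nobox had the highest median level per length in both classes, in 2-cell-like libraries within the spread of Taf4b and Lhx8. Taf4b was higher and Tbpl2 lower in 2-cell-like libraries, though the Tbpl2 difference fell under 2-fold without library 9 or without library 43. Lhx8 was close between the classes in pooled level, with a lower median in 2-cell-like libraries. Sohlh1 was at 0 in 34 of 39 2-cell-like and 38 of 39 oocyte-like libraries. A 2-cell-like library held counts of a median of 4 of the 7 genes (2 to 7), and an oocyte-like library of a median of 6 (1 to 7), with 6 in 26 of 39 libraries. These medians are at full depth, and oocyte-like libraries had the higher median total. Thinned to the same total, oocyte-like libraries with counts fell from 28 to 3 for Figla and from 33 to 20 for Sohlh2. The 2-cell-like ones fell from 12 to 5 for Figla and from 15 to 11 for Sohlh2. Nobox kept counts in all 39 oocyte-like libraries and went from 35 to 32 2-cell-like ones. How far depth made the difference in medians was not tested. In what follows a pooled level is the summed count of a class over its summed totals, in CPM, and intervals are 95% and cover counting error only. A class of libraries from unnamed animals counted as 1 sample, so values are described without tests or p-values. The classes were defined from these data and are not the study's groups, and in CPM less RNA of a gene and more RNA of other genes cannot be told apart. A gene was called higher or lower where its pooled level differed 2-fold or more, provided that it reached a pooled 10 CPM in 1 class and had a count in at least 50% of the libraries of the higher class.

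**Figure D1:**
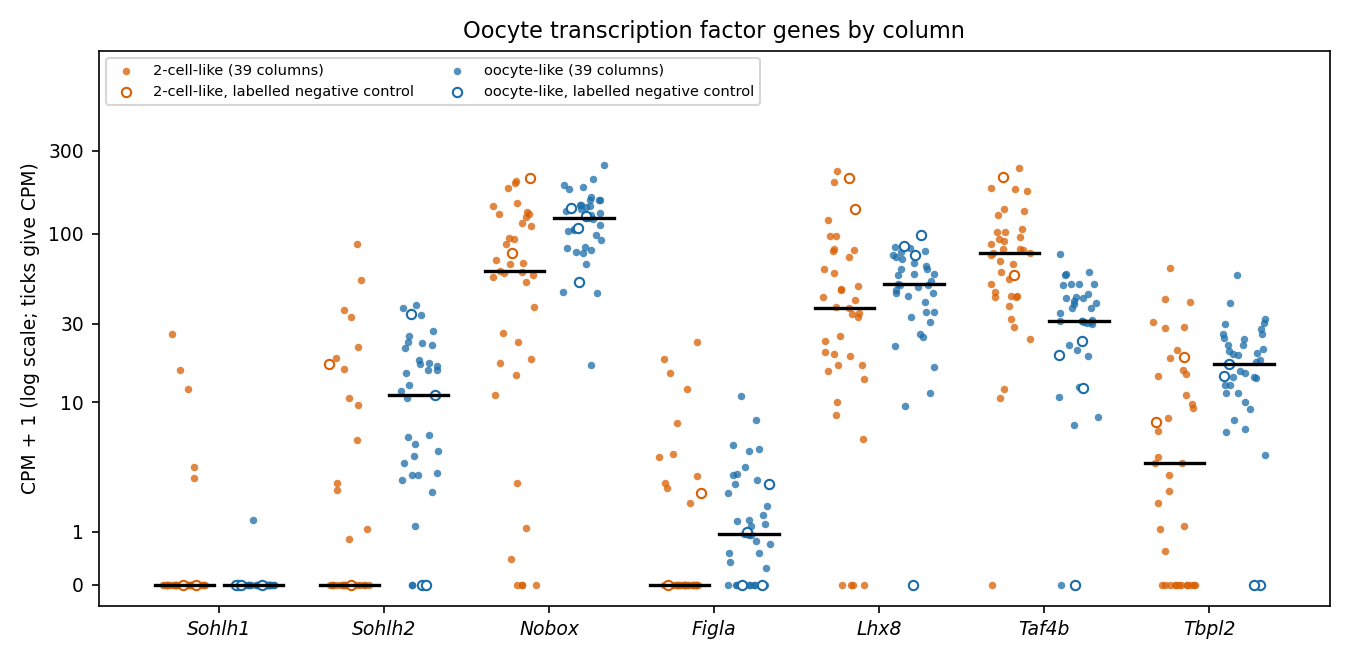
Level of each of the 7 genes in every kept library, as CPM on a log scale of CPM + 1, with 39 2-cell-like libraries (orange, left) and 39 oocyte-like libraries (blue, right) per gene; open circles are libraries labelled negative control and bars are medians. The Taf4b median is 77.2 CPM in 2-cell-like and 31.1 CPM in oocyte-like libraries, while most Sohlh1 points lie at 0.

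Of the 7 genes, 5 passed this filter, 1 was higher and 1 lower in 2-cell-like than in oocyte-like libraries. Of all 9677 genes compared, 48.7% were called, 20.9% as higher and 27.8% as lower, so the members' counts are near the background. The median log2 ratio was -0.48 over the 5 genes and -0.08 over all genes compared. Sohlh1 and Figla, at under 10 CPM in both classes, did not pass.

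Sohlh1 had the lowest pooled level per kilobase of exon of the 7 genes in both classes. It was at 0 in 34 of 39 2-cell-like libraries, with a highest level of 26.2 CPM, and in oocyte-like libraries it was at 0 in 38 of 39, with a highest level of 1.33 CPM. It had counts in 12.8% of 2-cell-like libraries (exact binomial interval 4.30% to 27.4%) and in 2.56% of oocyte-like libraries (0.0649% to 13.5%). The detected libraries thus lay mostly on the 2-cell-like side, although the intervals of the shares overlap. Its 94 counts in 2-cell-like libraries came from library 79, labelled mutant 2-cell (36 counts, 26.2 CPM), library 28, labelled mutant oocyte (33 counts, 15.9 CPM), library 5, labelled wild-type oocyte (12 counts, 12.2 CPM), and libraries 88 and 26 (8 and 5 counts). All 3 counts in oocyte-like libraries came from library 22, labelled wild-type oocyte. The pooled level was 1.45 CPM in 2-cell-like and 0.027 CPM in oocyte-like libraries, a ratio of 54.1 (17.9 to 267) that rests on these few libraries.

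Sohlh2, the partner with which SOHLH1 pairs, ranged over 0, 0 and 86.8 CPM (lowest, median and highest) in 2-cell-like and over 0, 11.1 and 38.4 CPM in oocyte-like libraries. Counts were found in 15 of 39 2-cell-like and in 33 of 39 oocyte-like libraries, and after thinning each library to 100000 counts, in 1 random draw, in 11 2-cell-like and 20 oocyte-like libraries. Most 2-cell-like libraries lacked it, and a few held more than any oocyte-like library: 2 lay above the whole oocyte-like range and 31 below the oocyte-like median. Library 36, labelled mutant oocyte, alone gave 28.7% of the 2-cell-like counts. The pooled level, 10.1 CPM in 2-cell-like and 14.1 CPM in oocyte-like libraries, was 1.40-fold lower (1.27 to 1.53) in 2-cell-like libraries and was not called. From the medians, each with 1 CPM added, the log2 ratio was -3.60 and the gene would be called lower.

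Nobox, needed in mice for primordial follicles to start growing, was detected in every oocyte-like library. It ranged over 0, 60.6 and 209.8 CPM in 2-cell-like and over 17.1, 124 and 249.7 CPM in oocyte-like libraries. At least 100 CPM were reached in 12 of 39 2-cell-like and in 27 of 39 oocyte-like libraries. The ranges overlapped, with 9 2-cell-like libraries below every oocyte-like one, 4 of them at 0, and 10 above the oocyte-like median. Pooled, Nobox was at 75.4 CPM (73.3 to 77.5) in 2-cell-like and at 123.5 CPM (121 to 126) in oocyte-like libraries, 1.64-fold lower (1.59 to 1.69) in 2-cell-like libraries. This did not reach 2-fold, but from the medians the log2 ratio was -1.02, which did. Library 61, labelled wild-type 2-cell, had both the lowest Nobox level among oocyte-like libraries and the highest share of cumulus and granulosa markers, 1.07%. Without the 11 libraries high in these markers the log2 ratio was -0.87, and -0.71 with them.

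Figla was near the detection limit at this depth. It ranged over 0, 0 and 23.2 CPM in 2-cell-like and over 0, 0.941 and 10.95 CPM in oocyte-like libraries. Counts were present in 12 of 39 2-cell-like and in 28 of 39 oocyte-like libraries, and after thinning in 5 2-cell-like and 3 oocyte-like libraries, numbers so near the limit of 1 count at that depth that no order was read from them. At full depth the pattern was of fewer, higher values in 2-cell-like libraries: 27 lay below the oocyte-like median and 4 above every oocyte-like library. The pooled ratio was 1.52 (1.26 to 1.85), a log2 ratio of 0.61, which was 0.18 without library 43, labelled mutant oocyte, and -0.96 from the medians.

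Lhx8, a LIM homeodomain factor required in mice for oocytes to grow, gave no direction between the classes in pooled level. Its median was lower in 2-cell-like libraries. It ranged over 0, 37.1 and 230.1 CPM in 2-cell-like and over 0, 50.9 and 98.4 CPM in oocyte-like libraries. The spread was wider in 2-cell-like libraries, 5 of which lay above every oocyte-like library while 26 lay below the oocyte-like median. Among those 5 were libraries 47 and 48, labelled negative control. Pooled levels were 54.4 CPM in 2-cell-like and 52.9 CPM in oocyte-like libraries, a ratio of 1.03 (0.987 to 1.07). The log2 ratio of 0.04 was -0.18 with TMM scaling and -0.08 with DESeq2 size factors, 2 scalings that moved the median of all genes by -0.24 and -0.14 on the log2 scale. Relative to the median of all genes, Lhx8 was thus slightly above 0 under each scaling.

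Taf4b was the member higher in 2-cell-like libraries. It ranged over 0, 77.2 and 238 CPM in 2-cell-like and over 0, 31.1 and 76.6 CPM in oocyte-like libraries. In 20 of 39 2-cell-like libraries the level was above that of every oocyte-like library, and all 39 oocyte-like libraries lay below the 2-cell-like median. Pooled levels were 81.0 CPM (78.8 to 83.2) in 2-cell-like and 33.0 CPM (31.9 to 34.1) in oocyte-like libraries, a ratio of 2.46 (2.35 to 2.56). The log2 ratio of 1.30 stayed at 1.08 or above under all 13 alternatives, and was 1.16 without the libraries labelled negative control. Taf4, its broadly expressed paralogue in TFIID, was at 43.5 CPM in 2-cell-like and 41.6 CPM in oocyte-like libraries, a ratio of 1.05 (0.998 to 1.10).

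Tbpl2 was the member lower in 2-cell-like libraries. It ranged over 0, 3.97 and 63.1 CPM in 2-cell-like and over 0, 17.3 and 58.1 CPM in oocyte-like libraries. The ranges overlapped almost entirely, but 12 2-cell-like libraries, against 2 oocyte-like ones, were at 0, and 30 2-cell-like libraries lay below the oocyte-like median. After thinning, 19 2-cell-like and 27 oocyte-like libraries had counts, against 27 and 37 at full depth. Pooled levels were 9.65 CPM in 2-cell-like and 20.2 CPM in oocyte-like libraries, 2.10-fold lower (1.92 to 2.29) in 2-cell-like libraries. The call was lost without library 9, labelled wild-type oocyte (log2 ratio -0.98), or without library 43, labelled mutant oocyte (-0.99), and from the medians the log2 ratio was -1.88. Tbp itself was 1.27-fold lower (1.23 to 1.31), at 71.6 CPM in 2-cell-like and 90.8 CPM in oocyte-like libraries, and the third family gene, Tbpl1, was at 49.4 CPM in 2-cell-like and 27.2 CPM in oocyte-like libraries, a ratio of 1.82 (1.73 to 1.91); neither was called.

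Levels of different genes were compared per kilobase of exon. By the median over libraries (quartiles in brackets), 2-cell-like libraries held 30.1 CPM per kb (8.93 to 59.7) of Nobox, 15.0 (8.43 to 19.9) of Taf4b, 14.6 (6.72 to 30.2) of Lhx8 and 2.88 (0 to 11.1) of Tbpl2, with medians of 0 for Sohlh2, Figla and Sohlh1. The quartile ranges of Nobox, Taf4b and Lhx8 overlapped, so their order was not beyond the spread. Oocyte-like libraries held 61.5 CPM per kb (43.8 to 72.9) of Nobox, 20.1 (13.8 to 28.7) of Lhx8, 12.5 (8.78 to 16.9) of Tbpl2, 6.05 (3.96 to 8.32) of Taf4b, 4.71 (1.37 to 8.38) of Sohlh2 and 1.13 (0 to 3.32) of Figla. There the quartile range of Nobox lay apart from that of Lhx8, and that of Tbpl2 from that of Taf4b, while Lhx8 and Tbpl2, Taf4b and Sohlh2, and Sohlh2 and Figla overlapped. In 2-cell-like libraries the quartile ranges of Taf4b and Tbpl2 overlapped.

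Spread between libraries was larger in the 2-cell-like class for 6 of the 7 genes, the exception being Sohlh1, whose oocyte-like counts came from 1 library. The coefficient of variation (SD over mean of CPM) of Nobox was 0.843 in 2-cell-like and 0.392 in oocyte-like libraries, and that of Lhx8 was 1.05 in 2-cell-like and 0.455 in oocyte-like libraries. Genes within 1.5-fold of the level of Nobox had median coefficients of 0.816 in the 2-cell-like class and 0.428 in the oocyte-like class, so Nobox varied about as much as other genes of its level in each. For Tbpl2 the coefficient was 1.37 in 2-cell-like and 0.590 in oocyte-like libraries, against 1.69 and 0.722 for genes of its level in those classes.

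Within the oocyte-like class, Nobox and Lhx8 varied together across the 39 libraries with a Spearman rho of 0.55, the highest of all pairs of members. It was 0.52 without the 2 libraries farthest from the Nobox median. The order of pairs depended on the measure. By Pearson r of log2 levels, Nobox and Lhx8 (0.558) came after Lhx8 and Taf4b (0.642, with a rho of 0.13) and Sohlh2 and Tbpl2 (0.568). In the 28 libraries under 0.1% cumulus and granulosa markers the rho of Nobox and Lhx8 was 0.31. The strongest pair in those 28 was negative, Lhx8 and Tbpl2 with a rho of -0.49, against -0.10 across the 39 libraries. The marker share itself had a rho of -0.53 with Lhx8, -0.41 with Taf4b and -0.28 with Nobox across the 39 libraries, and its part in these relations was not tested beyond that subset. In 2-cell-like libraries Nobox and Lhx8 had a rho of 0.42, and Sohlh2 and Lhx8 one of 0.57, the highest of all pairs there. In 2-cell-like libraries the Pearson r of log2 levels was 0.22 for Nobox and Lhx8 and 0.44 for Sohlh2 and Lhx8. These correlations describe libraries that differ in depth and may share animals, and no p-value is given.

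**Figure D2:**
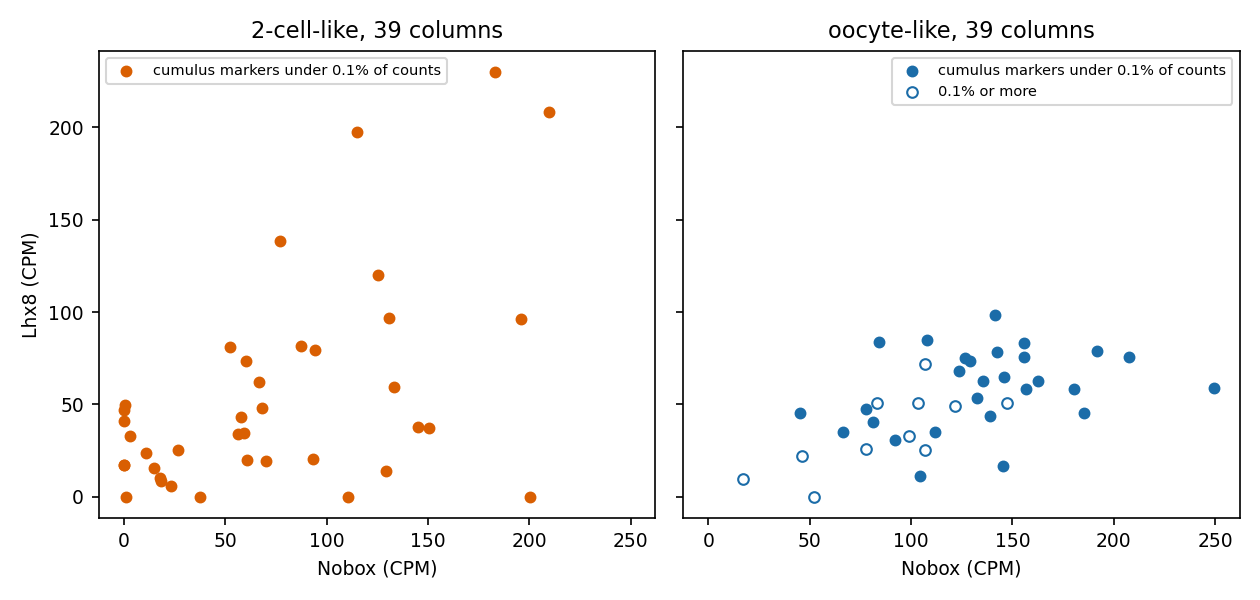
Lhx8 against Nobox in each library, both in CPM, in 39 2-cell-like libraries (left) and 39 oocyte-like libraries (right); open circles are libraries where cumulus and granulosa markers took 0.1% or more of counts. Lhx8 reaches 230.1 CPM in 2-cell-like and 98.4 CPM in oocyte-like libraries, and the open circles lie at 147 CPM of Nobox or below.

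The genes most like each factor in pattern were taken by rho over the 39 oocyte-like libraries, among 7446 genes with a median of at least 10 CPM there. For Nobox they were Sall4, a zinc-finger factor of the germ line (0.83), Nkd1 (0.82) and Ski (0.81), and in the 28 libraries low in cumulus markers their rho was 0.69, 0.69 and 0.72. For Lhx8 they included Dcaf7 (0.84) and Cabin1 (0.81), with 0.82 and 0.77 in the 28 libraries. In 2-cell-like libraries Sall4 had a rho of 0.20, Nkd1 one of 0.42 and Ski one of 0.46 with Nobox, while Dcaf7 had one of -0.08 and Cabin1 one of 0.0019 with Lhx8. The genes were picked as the highest in oocyte-like libraries, so these values are no comparison of the classes. Taf4b was nearest to Ythdc2 (0.68), Shcbp1 (0.67) and Zgrf1 (0.64), and Tbpl2 to Sinhcaf (0.77), Serpinb3a (0.69) and Spdl1 (0.68). Sohlh2 was nearest to Spdl1 (0.60), Stk32c (0.60) and Trim13 (0.59), with 0.53, 0.45 and 0.35 in the 28 libraries. The highest of 7446 values is high by selection; the median rho over all candidates was between 0.04 and 0.08 for these 5 factors.

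Genes that work with the 7 factors were compared between the same classes, as lists whose counts and medians stand beside the 20.9% of genes higher, the 27.8% lower and the median of -0.08 over all genes. Among the 3 other factors of a set reported to turn mouse embryonic stem cells into oocyte-like cells, 1 was higher and 1 lower in 2-cell-like libraries. Dynll1, a dynein light chain, was at 247 CPM in 2-cell-like and 64.4 CPM in oocyte-like libraries, a ratio of 3.84 (3.73 to 3.95). Sub1, a transcription coactivator, was at 271 CPM in 2-cell-like and 930.2 CPM in oocyte-like libraries, 3.43-fold lower (3.38 to 3.49). Stat3, a cytokine signalling factor, was 1.61-fold lower (1.57 to 1.65) and not called. The list thus had members in each direction.

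Among the E proteins that pair with helix-loop-helix factors and the Id proteins that block them, 6 of 7 passed the filter, 1 was higher, 0 were lower and the median log2 ratio was 0.26. Id1 was at 26.8 CPM in 2-cell-like and 4.01 CPM in oocyte-like libraries, a ratio of 6.68 (6.02 to 7.43). The E protein Tcf3, a partner of FIGLA, was at 41.1 CPM in 2-cell-like and 33.0 CPM in oocyte-like libraries and Tcf4 at 11.0 CPM in 2-cell-like and 21.6 CPM in oocyte-like libraries, and neither was called; without library 3 the ratio of Tcf4, 0.508, was 0.461, past 2-fold. Of the cofactors and inhibitors of LIM domain proteins such as LHX8, 8 of 10 passed, 1 was higher, 1 was lower and the median was 0.41. Lmo1, a LIM-only protein, was at 1384 CPM in 2-cell-like and 507.9 CPM in oocyte-like libraries, a ratio of 2.73 (2.70 to 2.75). Lmo4, of the same family, was 2.55-fold lower (2.35 to 2.78), and the main cofactor gene, Ldb1, had a ratio of 1.35 (1.29 to 1.41). Most partners of these DNA-binding factors therefore lay within 2-fold.

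Of 21 genes for the TBP family, TFIID, TFIIA and TFIIB other than Taf4b and Tbpl2, 20 passed the filter, 1 was higher, 3 were lower and the median log2 ratio was 0.23. Gtf2a1l, the germ-cell form of the large TFIIA subunit, was at 5.13 CPM in 2-cell-like and 95.3 CPM in oocyte-like libraries, 18.6-fold lower (16.7 to 20.8). Its broadly expressed counterpart, Gtf2a1, was at 662 CPM in 2-cell-like and 588 CPM in oocyte-like libraries, a ratio of 1.13 (1.11 to 1.14). Taf8 was 7.40-fold lower (6.95 to 7.90), Taf7 was 3.57-fold lower (3.47 to 3.66) and Taf12, which pairs with TAF4 proteins in TFIID, had a ratio of 3.71 (3.57 to 3.86).

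**Figure D3:**
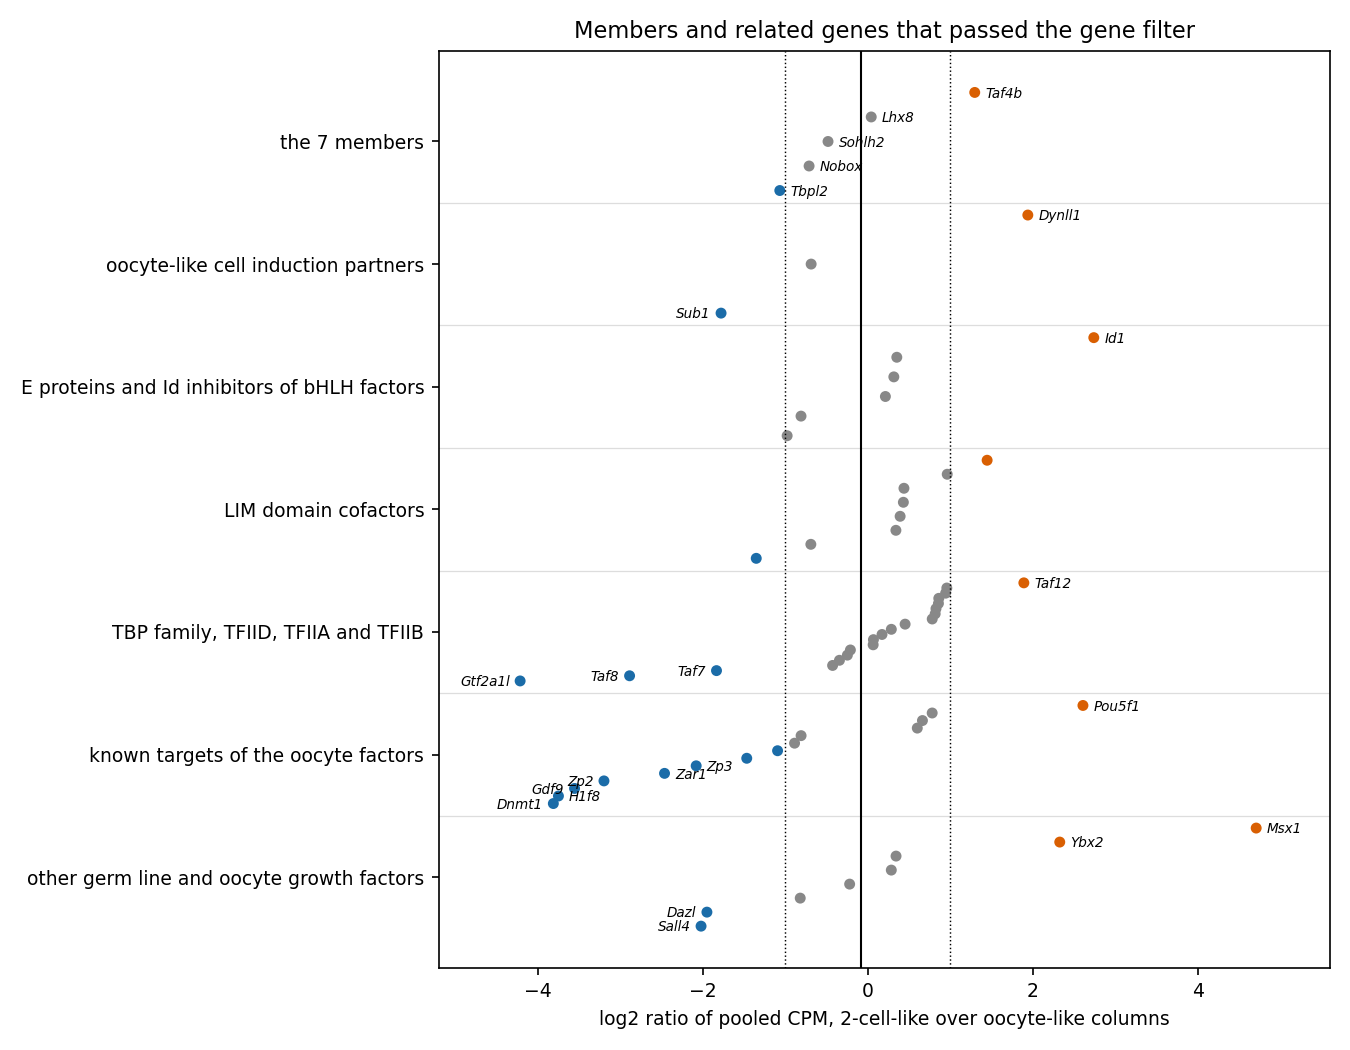
Log2 ratio of pooled CPM, 2-cell-like over oocyte-like libraries, for the 5 members and the related genes that passed the filter, 1 point per gene and 1 band per list; dotted lines mark 2-fold, the solid line the median of all genes (-0.08), and orange and blue points are genes called higher and lower. Taf4b lies right and Tbpl2 left of the dotted lines, and 8 of the 14 genes reported as targets lie to the left.

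Genes reported in mice as depending on these factors were lower more often than higher in 2-cell-like libraries: of 14, all of which passed the filter, 8 were lower, 1 was higher and the median log2 ratio was -1.28. Gdf9, a growth factor secreted by the oocyte, was 11.8-fold lower (11.6 to 11.9), Zp2, for a zona pellucida protein, 9.18-fold lower (8.93 to 9.44), and Zar1, for an RNA-binding protein of maternal RNA, 5.52-fold lower (5.41 to 5.63). The linker histone gene of oocytes, H1f8, was 13.5-fold lower (13.4 to 13.6) and Dnmt1, which maintains DNA methylation, 14.1-fold lower (13.6 to 14.5). Pou5f1, the pluripotency factor that the embryo also transcribes, was at 960 CPM in 2-cell-like and 157 CPM in oocyte-like libraries, a ratio of 6.10 (5.99 to 6.20). Gdf9, Zp2, Zp3 and H1f8 are also among the markers used to check the classes.

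Of 11 other germ-line and oocyte growth factors, 8 passed the filter, 2 were higher, 2 were lower and the median log2 ratio was 0.03. Msx1, a homeobox gene, was at 14.0 CPM in 2-cell-like and 0.536 CPM in oocyte-like libraries, a ratio of 26.1 (20.1 to 34.5). Library 61 gave 81.7% of its 60 oocyte-like counts, and without that library the ratio was 137 (76.2 to 275.3), on 11 counts. Ybx2, for a germ-cell RNA-binding protein, had a ratio of 5.02 (4.51 to 5.59). Sall4 was 4.06-fold lower (3.96 to 4.16) and Dazl, a germ-cell RNA-binding protein, 3.87-fold lower (3.81 to 3.93). Of the 16 cumulus and granulosa markers 12 passed and all 12 were lower, with a median log2 ratio of -7.24, which follows from their share of counts given above. Of the 7 blood markers 1 passed and was lower, 0 of 7 sperm markers passed, and of the 4 oviduct markers Ovgp1 was lower and Epcam higher.

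The genotype labels belong to the same sample labels whose stage went against the RNA, and no measurement here checks them, so each ratio between them compares libraries by label and may not compare genotypes. They were read within each class, on 30 mutant-label and 7 wild-type-label 2-cell-like libraries and on 9 mutant-label and 26 wild-type-label oocyte-like libraries. The mutant label covers 2 labelled genotypes. Of the 30 libraries, 19 are labelled Padi6P620A/P620A and 11 Padi6MatP620A/+, while all 9 are labelled Padi6MatP620A/+, so the 2 classes do not give the same comparison. In oocyte-like libraries 5 members passed the filter and 0 were called, beside 16.2% of 9093 genes called, 0.429% as higher and 15.8% as lower. Nobox ranged over 45.2, 139 and 208 CPM in the 9 mutant-label and over 17.1, 123 and 249.7 CPM in the 26 wild-type-label libraries, a ratio of 1.16 (1.11 to 1.20). Lhx8 had a ratio of 0.985 (0.924 to 1.05), Taf4b 1.13 (1.04 to 1.21), Tbpl2 1.20 (1.09 to 1.32) and Sohlh2 1.29 (1.15 to 1.45). These differences lie within the spread between libraries, and the groups overlapped for each of the 5 genes. Without libraries at 0.1% or more cumulus and granulosa markers, which left 8 mutant-label and 17 wild-type-label libraries, the log2 ratio of Nobox was 0.06, against 0.21 with them.

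In 2-cell-like libraries 4 members passed the filter and 2 were higher under the mutant label, beside 24.9% of 8549 genes called, 18.6% as higher and 6.32% as lower. Lhx8 ranged over 0, 39.4 and 230.1 CPM in the 30 mutant-label libraries, against 0, 13.9 and 47.1 CPM in the 7 wild-type-label libraries, a ratio of 3.64 (3.13 to 4.25). Nobox ranged over 0, 63.5 and 200.5 CPM in mutant-label and over 0, 17.6 and 129 CPM in wild-type-label libraries, a ratio of 2.02 (1.83 to 2.23). The groups overlapped for both genes. With TMM scaling the log2 ratio of Nobox was 0.92, with DESeq2 size factors 0.91, both under 2-fold. Leaving out 1 library at a time ended the Nobox call for 12 of 37 libraries (7 mutant-label libraries, 27, 32, 43, 45, 76, 77 and 79, and the wild-type-label libraries 2, 4, 6, 7 and 8), with log2 ratios between 0.79 (without library 4) and 1.73 (without library 3), while that of Lhx8 ran between 1.70 and 2.20 and kept its call. Taf4b had a ratio of 1.94 (1.77 to 2.13), not called, and was called without library 6, 8, 32, 43 or 45, with a log2 ratio of up to 1.30 (without library 8). Tbpl2 was 1.62-fold lower (1.34 to 1.95), a log2 ratio of -0.70 that was -0.06 without library 7. All 7 wild-type-label libraries here carry the label oocyte, which their RNA goes against, and none labelled wild-type 2-cell was 2-cell-like.

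**Figure D4:**
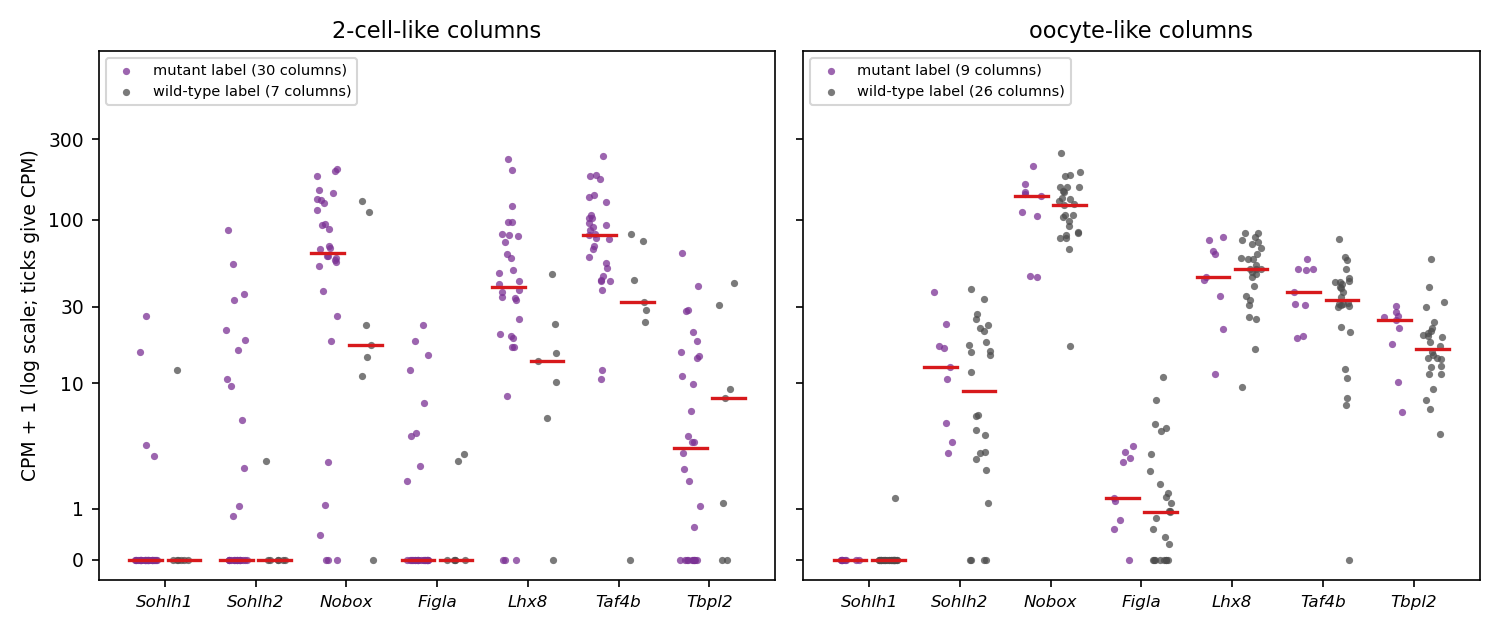
Level of the 7 genes as CPM on a log scale of CPM + 1 under the mutant label (purple) and the wild-type label (grey), in 2-cell-like libraries (left, 30 and 7 libraries) and oocyte-like libraries (right, 9 and 26 libraries); red bars are medians. In 2-cell-like libraries the Lhx8 median is 39.4 CPM under the mutant label and 13.9 CPM under the wild-type label, and in oocyte-like libraries the groups overlap for each gene.

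By the labels alone, the 19 kept libraries labelled mutant oocyte were set against the 19 labelled wild-type oocyte, and 1 member was higher and 1 lower, beside 39.5% of 9122 genes called, 16.8% as higher and 22.7% as lower. Taf4b ranged over 10.7, 90.3 and 238 CPM under the mutant oocyte label, against 0, 37.0 and 81.7 CPM under the wild-type oocyte label, a ratio of 2.35 (2.22 to 2.49). Tbpl2 ranged over 0, 3.24 and 40.1 CPM under the mutant oocyte label, against 0, 18.3 and 58.1 CPM under the wild-type oocyte label, 2.90-fold lower (2.54 to 3.34). These are the members called between the classes, and all 19 libraries labelled mutant oocyte were 2-cell-like while 12 of the 19 labelled wild-type oocyte were oocyte-like, so class and genotype label cannot be told apart in this comparison. Of all called genes 42.4% were higher, and 31.3% with TMM scaling.

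Between the 21 kept libraries labelled mutant 2-cell and the 14 labelled wild-type 2-cell, 0 members were called, beside 19.7% of 9996 genes called, 7.88% as higher and 11.8% as lower. Taf4b had the ratio farthest from 1 of the 5 that passed the filter, 1.56 (1.45 to 1.68), with medians of 50.8 CPM under the mutant 2-cell label and 31.1 CPM under the wild-type 2-cell label. Sohlh1, under the filter, had 44 counts under the mutant 2-cell label and 0 under the wild-type 2-cell label. Against a floor of 3 counts over the group this is 13.2-fold higher, but library 79 gave 81.8% of the counts. Without library 79 the ratio was much smaller, a log2 ratio of 1.31 on the 8 counts of library 88. Of these libraries 11 of the 21 labelled mutant and 0 of the 14 labelled wild type were 2-cell-like.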

How the data were processed

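RNA of single cells was captured as polyadenylated RNA, copied with template switching, amplified by PCR and sequenced, per the labels' protocols, and no molecular identifiers are named there. Values in the authors' table are raw read counts per gene and library, in whole numbers. Reads were trimmed with Trim Galore 0.4.4, aligned with HISAT2 2.1.0 to GRCm39 (mm39), and DESeq2 was used, per the submitters' processing notes; the settings are not given in the sources used here. The table's 36983 entries carry symbols, and 48 repeats were summed into 36935 symbols. The 17 libraries under the filters were left out; in them the 7 genes had counts in at most 2 libraries each. A further library, labelled mutant 2-cell, had neither Mos nor Zfp352 and 1.26 CPM of Taf4b as its only member, and entered neither class.

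The members, lists and markers were chosen with earlier results of these data known. Named genes were the 7 members, up to 6 genes per list with the largest log2 ratio either way among those past the filter (the text gives a part, and names Taf4, Tbp, Tbpl1, Gtf2a1, Tcf3 and Ldb1 besides), and for each member with a count in at least 80% of oocyte-like libraries the 3 genes of highest rho, of which 1 is not reported here. Ratios of pooled CPM have exact conditional binomial 95% intervals, levels exact Poisson intervals and shares exact Clopper-Pearson intervals. PCR reads are not independent molecules, so intervals and floors cover counting error only. Exon lengths are unions of exons in GENCODE M21, an earlier build than the authors', so levels per kb are approximate. Counting is not stated to use strand, so reads of overlapping antisense genes cannot be told apart. No doublet search was made, as cells were picked singly. The ratio and the calls were tested on simulated data, but the coverage of the interval was not. Python 3.11.15 with numpy 2.4.6, pandas 2.3.3 and scipy 1.17.1 was used; edgeR 4.0.16 (TMM) and DESeq2 1.42.0 served for scaling alternatives alone. Other alternatives were filters, medians, class boundaries and left-out libraries; leaving out negative controls was added after the data were seen.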

Additional observations from a re-analysis of the deposited data

Results flagged for a closer look

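Of 25 combinations of a gene and a group of 4 to 10 libraries examined, 3 held a library far from the others. The rule gives about 1 in 20 by chance for normally distributed values, which these are not, and some groups share libraries. With all other libraries at 0, any count is flagged. No rate was therefore read from these flags. Taf4b reached 212 CPM in library 47, the highest of the 6 kept libraries labelled negative control, where the next was at 57.7 CPM. Both are 2-cell-like. Sohlh1 was at 12.2 CPM in library 5, the highest of the 7 wild-type-label 2-cell-like libraries, the other 6 of which were at 0. Sohlh2 was at 2.83 CPM in library 2 of the same 7, with the other 6 at 0, a level that rests on 3 counts. No cause was tested for any of them.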

How the results depend on the processing

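No value of a member that was called changed sign under an alternative. Taf4b, called higher between the classes, was called under all 13 alternatives, and Tbpl2, called lower, under all except leaving out library 9 or 43. Between the classes, without a gene filter 10196 genes were higher and 6534 lower, against 2026 and 2691 with it. Between mutant-label and wild-type-label oocyte-like libraries, 39 genes were higher and 1437 lower. There the counts were 92 higher with DESeq2 size factors, 271 higher and 2875 lower with a filter of 1 CPM, 3633 and 5852 without a filter, 67 and 228 without the libraries high in cumulus markers, 67 higher at a Mos boundary of 50 CPM, and 816 lower at 300 CPM. Leaving out 1 library gave 34 to 61 higher (highest without library 90) and 816 to 1760 lower (lowest without library 61). Between mutant-label and wild-type-label 2-cell-like libraries, 1587 were higher and 540 lower; without a filter 6668 and 5495, and from medians 1364 lower. Between the labels mutant and wild-type oocyte, 1530 were higher and 2075 lower, and without a filter 7499 and 6577. Between the labels mutant and wild-type 2-cell, 788 were higher and 1181 lower. There a filter of 1 CPM gave 1216 and 2234, no filter 5683 and 4884, medians 2960 lower, and libraries low in cumulus markers 541 lower. Leaving out 1 library gave 410 (without library 61) to 1941 (without library 86) lower. A looser filter admits more genes; the cause of the other changes was not tested. The remaining 84 counts of genes were within 1.5 times their value above. No paired analysis was possible because each label number is used once. For genes of the lists that passed the filter, leaving out 1 library was tried after seeing the data and the genes named here were chosen by its result. It took Zp1, called lower, to a ratio of 0.506 (without library 53), and took past 2-fold Id2 (0.495, without library 32), Ddx4 (0.451, without library 34) and Taf9 (2.04, without library 56). Depth limits Sohlh1 and Figla, which rest on few counts per library.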

Other observations

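All 6 kept libraries labelled negative control held Nobox RNA, and 5 of them Lhx8 and Taf4b. Tbpl2 had counts in 4 of the 6, and Sohlh2 and Figla in 3 each. Library 23 held 48 counts of Nobox and 0 of every other member. Nobox ranged over 52.3, 117 and 209.8 CPM (lowest, median and highest), Lhx8 over 0, 91.6 and 208 CPM and Tbpl2 over 0, 11.0 and 19.0 CPM. Sohlh1 had 0 counts in all 6, which allows up to 0.257 CPM over the group by the exact Poisson interval. These libraries give no background for a well without a cell. Leaving them out moved the log2 ratio of Nobox between 2-cell-like and oocyte-like libraries to -0.79, that of Lhx8 to -0.07 and that of Sohlh2 to -0.39.

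Stra8, a gene that germ cells switch on as they enter meiosis, was under the filter, with a pooled level of 4.31 CPM in 2-cell-like and 0.018 CPM in oocyte-like libraries, a ratio of 242 (66.2 to 2004). The oocyte-like level rests on 2 counts in 1 library, the 280 2-cell-like counts came from 9 of 39 libraries, and library 31 gave 65.0% of them; without it the ratio was 88.0 (23.7 to 737). Id4, a further inhibitor of helix-loop-helix factors, was also under the filter, with 4.79 CPM in 2-cell-like and 1.02 CPM in oocyte-like libraries, a ratio of 4.71 (3.79 to 5.89), or 8.83 without library 55. Both were singled out after their values were seen.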
